A study of Drosophila melanogaster with 8 samples.

Results

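The genes described here act in the maturation and regulated release of peptide hormones and transmitters. They are 10 of the 17559 genes in the count table: pros, amon, svr, 7B2, IA-2, Syt1, Syt4, Rab3, Cadps and futsch. They were chosen by name for their known roles, with earlier results of these data known. All 10 were found by their FlyBase identifiers. The gene once called Caps, now Cadps, was kept apart from caps, a different gene. The libraries hold poly(A) RNA of guts dissected from adult female Drosophila melanogaster, in 2 groups of 4 that the labels call biological repeats. In the LamDm0 group a UAS transgene made the B-type lamin LamDm0 in enterocytes, which absorb nutrients in the midgut. In the control group, whose genotype the labels give as wt, a UAS transgene made GFP, and the series title places it in enterocytes too. In both groups flies were raised at 18 °C, and females of 2 to 4 days were held at 29 °C for 2 days before RNA was taken. The labels do not name the driver of the transgenes, nor say how many guts went into a library.

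Peptide hormones are made as longer precursors that are cut at basic residues inside the secretory pathway, trimmed at their ends, and stored in dense core vesicles until a rise in calcium triggers fusion with the plasma membrane. In the fly midgut this is the work of enteroendocrine cells, which are scattered among the enterocytes and are recognised by the transcription factor Prospero. Neurons that innervate the gut use much of the same machinery, so a whole-gut library can hold transcripts of these genes from both sources. The transgene itself was placed in enterocytes.

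Total counts were 22737593 to 36022790 in LamDm0 libraries and 19720070 to 23347139 in control libraries. Lam, the gene of the transgene, had 3610 ± 957 CPM (read counts scaled to library size by TMM) in LamDm0 guts and 18.3 ± 1.62 CPM in control guts (SD, n = 4 each), so the groups matched their labels. Within each group the libraries formed 2 close pairs, replicates 1 and 2 and replicates 3 and 4. The median chi-square per gene was 1.87 and 3.45 within the LamDm0 pairs and 1.45 and 2.94 within the control pairs, against 7.11 to 23.7 between pairs. A single library sequenced in duplicate would give 0.455, and all 8 were kept as separate samples. Whether the 2 libraries of a pair share RNA or flies was not tested. The labels give no reason for the pairs, and p-values measure only the spread between these libraries. The edgeR fit was also run without each LamDm0 pair. It was run with libraries summed in pairs too, where 72 genes had an adjusted p under 0.05, against 706 with all 8 kept separate.

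Per exon length, the genes ran from well expressed to barely detected. The order in control guts, in RPKM (CPM per kilobase of exon), began with svr at 15.7 ± 0.48, IA-2 at 10.3 ± 2.04 and 7B2 at 6.63 ± 2.37 (SD, n = 4). The middle of the order held amon at 2 ± 0.258 and Rab3 at 0.618 ± 0.0378. Cadps at 0.395 ± 0.0995, Syt1 at 0.225 ± 0.0675, pros at 0.129 ± 0.0352, futsch at 0.0385 ± 0.0138 and Syt4 at 0.0238 ± 0.0275 closed it. Neighbours in this order whose control libraries overlapped were IA-2 and 7B2, Syt1 and pros, and futsch and Syt4. Cadps and Syt1 met at 0.274 RPKM, the lowest control library of Cadps and the highest of Syt1. The processing genes svr, 7B2 and amon and the vesicle gene IA-2 stood above the synaptotagmin genes and futsch. In LamDm0 guts Cadps, at 0.859 ± 0.182 RPKM, stood above Rab3, at 0.602 ± 0.257 RPKM, and futsch, at 0.159 ± 0.0484, above pros, at 0.151 ± 0.0551, but the libraries of both of these neighbouring pairs overlapped. The remaining genes kept their places. Exon bases were summed over all annotated transcripts, so an RPKM is too low for a gene that uses a part of them, which bears most on pros and futsch with 24.9 and 23.3 kb.

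**Figure D1:**
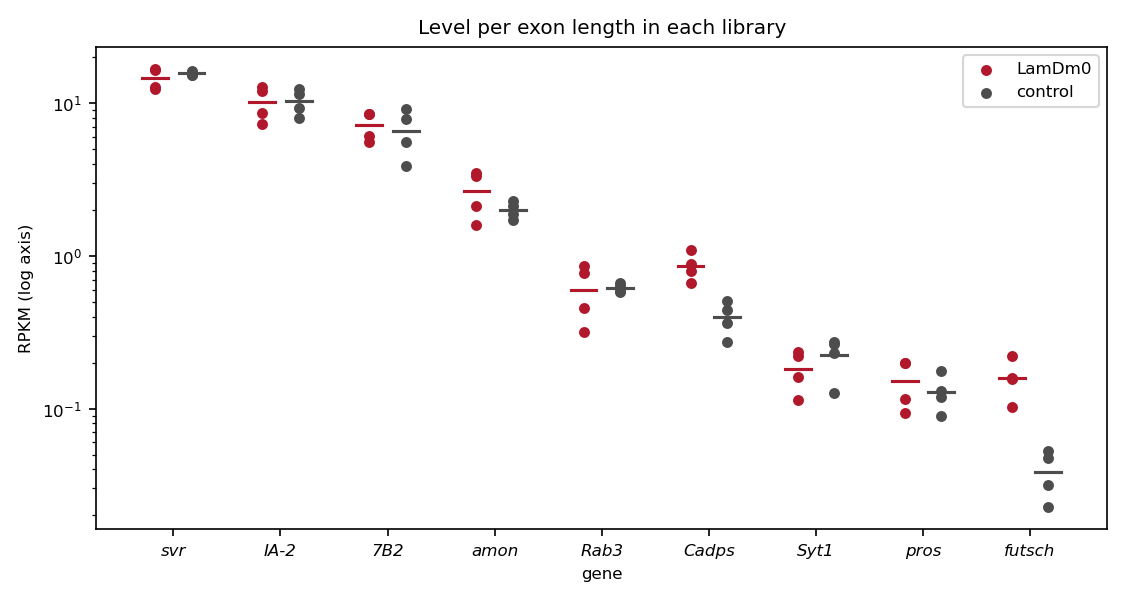
RPKM of 9 genes (log axis) in each library, with LamDm0 libraries in red and control libraries in grey, and a line at the mean of 4 libraries. Syt4 is left out because a log axis cannot show its counts of 0. In both groups svr stands at the top, and Cadps and futsch are the genes whose red and grey points separate.

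Of the 9 genes that had enough counts to be tested, 2 rose in LamDm0 guts, 0 fell and 7 did not pass (edgeR's quasi-likelihood test, adjusted p under 0.05 over all 8794 genes tested). The 2 were Cadps, 2.17-fold, and futsch, 4.11-fold. Over all genes 8.03% passed, 4.76% higher and 3.26% lower, and the 22.2% of these genes rests on 2 of 9, from which nothing particular to them is drawn. The groups did not overlap for those same 2 genes, against 17.3% of all genes tested in either direction and 9.95% with the LamDm0 libraries on top. The median log2 fold change of the 9 was 0.12, beside 0.01 over all genes, and 5 of 9 were positive, beside 51.3% of all genes. A log2 fold change of at least that of futsch was seen in 92 genes, and of at least that of Cadps in 320. In whole guts, more cells of a type and more RNA per cell cannot be told apart.

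**Figure D2:**
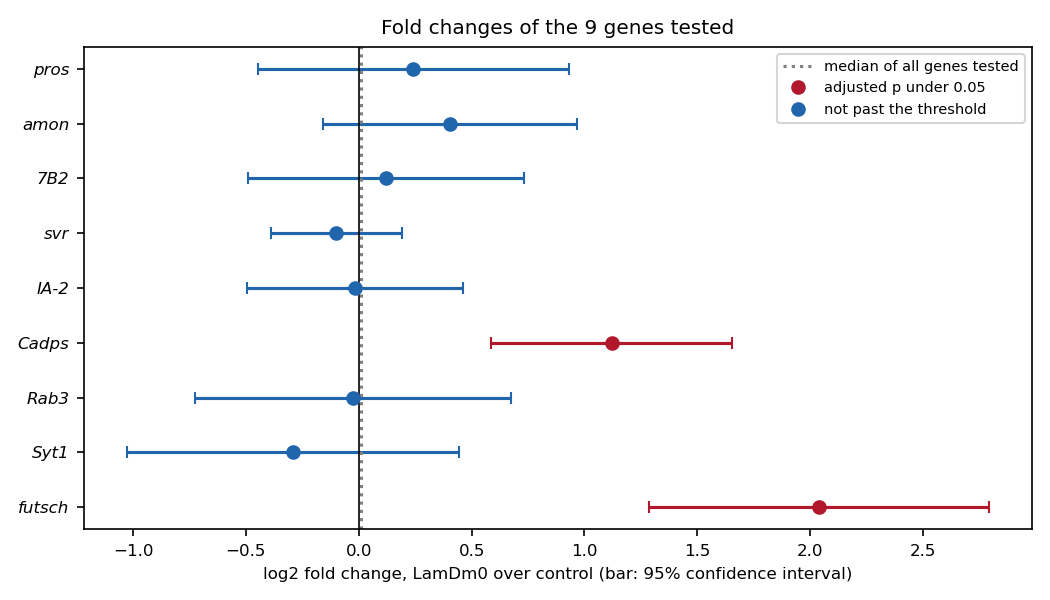
Log2 fold change, LamDm0 over control, of the 9 genes tested, with 95% confidence intervals from edgeR over 4 libraries in each group. Red marks the genes past the threshold, Cadps at 1.12 and futsch at 2.04, whose intervals lie wholly above 0; the intervals of the other 7 cross 0.

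**Figure D3:**
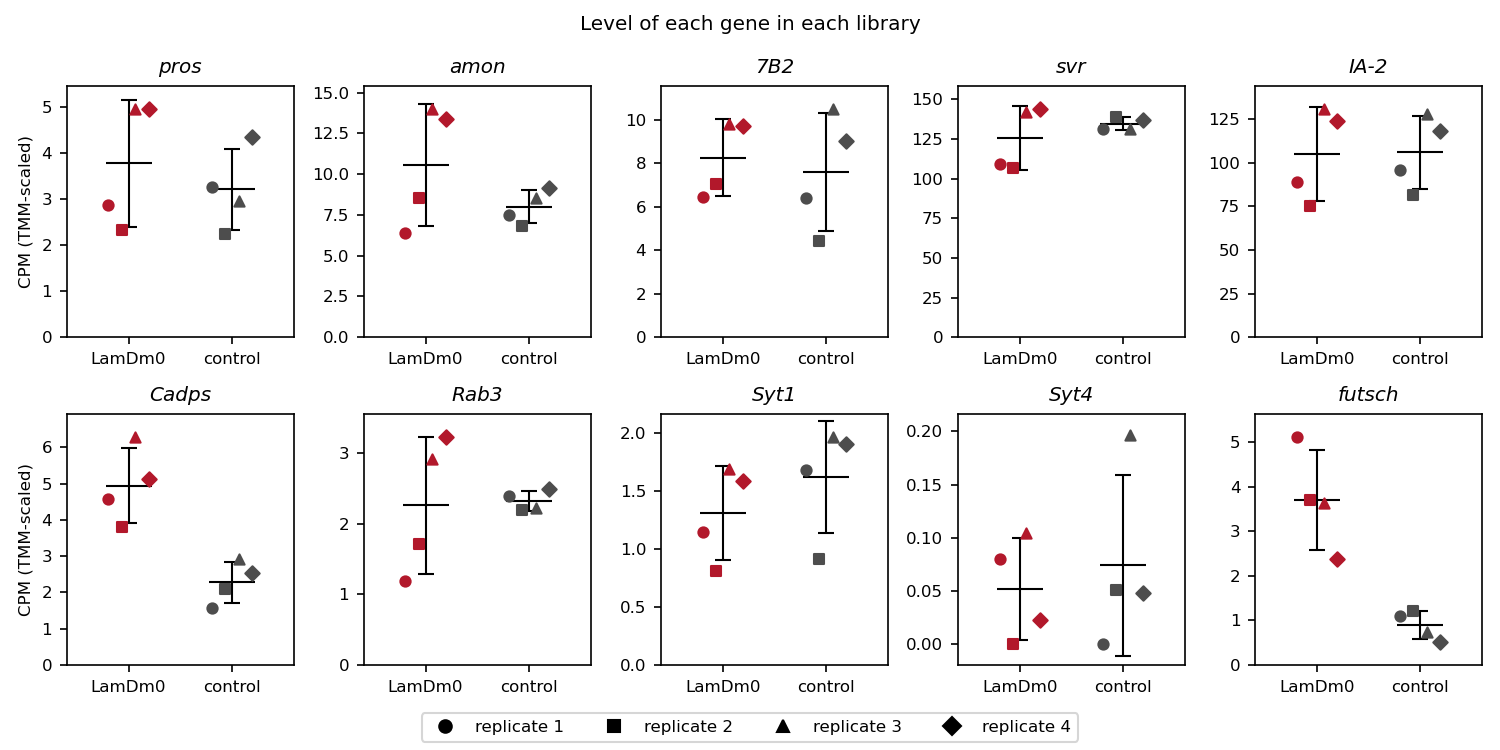
CPM of all 10 genes in each library, each panel on its own linear axis, with LamDm0 libraries to the left of control libraries. Symbols mark the replicate, and bars the mean and SD of 4 libraries. The groups separate for Cadps and futsch, and in most other panels LamDm0 replicates 3 and 4 (triangles and diamonds) stand above replicates 1 and 2.

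The transcription factor gene pros (FBgn0004595, chromosome arm 3R, 11328480 to 11407627, plus strand, in BDGP6.54) encodes Prospero, which specifies enteroendocrine cells in the adult midgut. It had 2.86, 2.33, 4.95 and 4.94 CPM in LamDm0 replicates 1 to 4 and 3.26, 2.24, 2.96 and 4.35 CPM in control replicates 1 to 4. LamDm0 replicates 3 and 4 were the highest of the 8, and the other LamDm0 libraries lay within the range of the controls. The log2 fold change of 0.24 ± 0.30 (SE) did not pass (adjusted p = 0.68), with a 95% interval of -0.45 to 0.93.

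Precursor processing showed no gene past the threshold. The gene amon (FBgn0023179, 3R, 26697697 to 26714159, minus strand) encodes the fly prohormone convertase PC2, the endoprotease that cuts peptide precursors. It had 6.36, 8.52, 14 and 13.4 CPM in the LamDm0 libraries and 7.52, 6.82, 8.53 and 9.13 CPM in the control libraries. Again replicates 3 and 4 of the LamDm0 group stood above every control, and replicate 1 stood below every control. The log2 fold change was 0.40 ± 0.25 (adjusted p = 0.37; 95% interval -0.16 to 0.97). It was 0.77 without LamDm0 replicates 1 and 2, where amon passed (adjusted p = 0.025), and -0.10 without LamDm0 replicates 3 and 4 (adjusted p = 0.78).

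The gene 7B2 (FBgn0041707, 3R, 5376780 to 5377975, plus strand) encodes the small helper protein that PC2 needs to become active. It had 6.44, 7.05, 9.82 and 9.72 CPM in the LamDm0 libraries and 6.41, 4.43, 10.5 and 9.04 CPM in the control libraries. The LamDm0 libraries lay inside the wider range of the controls, and in both groups replicates 3 and 4 were the higher ones. Its log2 fold change was 0.12 ± 0.27 (adjusted p = 0.83; 95% interval -0.49 to 0.73).

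The gene svr (FBgn0004648, X, 496446 to 509072, plus strand) encodes silver, a carboxypeptidase D that removes basic residues left at the ends of cut peptides. It was the most abundant of the 10, with 107 to 144 CPM in LamDm0 libraries and 131 to 139 CPM in control libraries. The controls lay between LamDm0 replicates 1 and 2 below and 3 and 4 above. The log2 fold change was -0.10 ± 0.13 (adjusted p = 0.68), with the narrowest 95% interval of the 9, -0.39 to 0.19, or 0.763- to 1.14-fold. Of its 8583 exon bases 817 are also exons of antisense RNAs on the opposite strand, and the strand setting of the counting is not given in the sources used here.

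Beyond these 3, the processing list held other proteases, amidating enzymes, glutaminyl cyclases and the peptidergic transcription factor gene dimm. Of its 13 genes 11 were found and 9 tested. Those not found were Phm and Pal1, both genes of amidating enzymes, so that step was covered only in part. By edgeR 0 passed, 2 had an unadjusted p under 0.05, DESeq2 called 1 (isoQC) and limma-voom 0. The median log2 fold change was 0.12. The smallest p belonged to isoQC, a glutaminyl cyclase gene, at 40.2 ± 2.32 CPM in LamDm0 and 52 ± 8.17 CPM in control guts (log2 fold change -0.37 ± 0.12, adjusted p = 0.11), and its groups did not overlap. Without LamDm0 replicates 1 and 2 the list had 2 genes past the threshold, amon and CG8562. CG8562 was lower there (log2 fold change -1.37, adjusted p = 0.035) and was named after its values were seen. CG8562, a carboxypeptidase gene, had 713 ± 322 CPM in LamDm0 and 1170 ± 181 CPM in control guts. It made up most of the summed level of the list, 643 to 1290 CPM in LamDm0 and 1330 to 1730 CPM in control libraries. The lower sum in LamDm0 libraries therefore reports mainly CG8562 and does not describe the list as a whole. Of its 9 tested genes, 5 had a positive log2 fold change. Whether CG8562 acts on hormone precursors was not tested.

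Among genes of dense core vesicles and their tethering, Cadps was higher in LamDm0 guts. Cadps (FBgn0053653, chromosome 4, 1230837 to 1271759, plus strand) encodes the calcium-dependent activator protein for secretion, CAPS, which primes dense core vesicles for release. It had 4.57, 3.81, 6.3 and 5.12 CPM in LamDm0 replicates 1 to 4 and 1.58, 2.09, 2.91 and 2.53 CPM in control replicates 1 to 4. Every LamDm0 library was above every control. Cadps rose 2.17-fold (95% interval 1.5 to 3.15; log2 fold change 1.12 ± 0.24, adjusted p = 0.024), on 602 counts in the LamDm0 libraries and 186 in the controls. The call ended without LamDm0 replicate 3 (adjusted p = 0.069) or 4 (0.063), control replicate 1 (0.058) or 2 (0.069), or LamDm0 replicates 3 and 4 together (0.13). Cadps was too low to be tested with a mean of at least 10 CPM. The log2 fold change stayed between 0.89 and 1.32 under every alternative in which Cadps was tested. With libraries summed in their pairs it was 1.11 (adjusted p = 0.28).

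IA-2 (FBgn0031294, 2L, 1008378 to 1048053, minus strand) encodes a transmembrane protein of dense core vesicles from the receptor tyrosine phosphatase family. It had 89.1, 75.2, 131 and 124 CPM in the LamDm0 libraries and 96.1, 81.8, 128 and 118 CPM in the control libraries. The 2 groups held nearly the same set of levels, low in replicates 1 and 2 and high in 3 and 4. The log2 fold change was -0.02 ± 0.21 (adjusted p = 0.97; 95% interval -0.50 to 0.46).

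Rab3 (FBgn0005586, 2R, 10721335 to 10729203, minus strand) encodes a small GTPase that sits on secretory vesicles and acts in their docking. It had 1.19, 1.71, 2.91 and 3.23 CPM in the LamDm0 libraries and 2.39, 2.19, 2.22 and 2.49 CPM in the control libraries. The controls were close together and lay between LamDm0 replicates 1 and 2 below and 3 and 4 above. The log2 fold change of -0.03 ± 0.31 (adjusted p = 0.97; 95% interval -0.73 to 0.67) was a mean over these unlike LamDm0 libraries.

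Cadps was also set against IA-2 within each library, as a description with no test. Per unit of IA-2 the CPM ratio was 0.0513, 0.0506, 0.0482 and 0.0413 in LamDm0 libraries and 0.0164, 0.0255, 0.0228 and 0.0214 in control libraries. Every LamDm0 ratio was above every control ratio, as for the CPM of Cadps itself. In the list of vesicle formation and transport, 16 of 17 genes were found and tested: Cadps was higher, 0 were lower and 15 did not pass, with a median log2 fold change of -0.01. Without LamDm0 replicates 3 and 4, 0 passed.

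Of the calcium sensor genes, Syt1 did not pass and Syt4 was removed by the filter on low counts. Syt1 (FBgn0004242, 2L, 2772327 to 2799979, minus strand) encodes synaptotagmin 1, the sensor for fast transmitter release in neurons. It had 1.15, 0.809, 1.69 and 1.59 CPM in the LamDm0 libraries and 1.68, 0.916, 1.97 and 1.91 CPM in the control libraries, on 17 to 70 counts per library. The groups overlapped, and replicate 2 was the lowest of each. The log2 fold change was -0.29 ± 0.32 (adjusted p = 0.63; 95% interval -1.03 to 0.45).

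Syt4 (FBgn0028400, 3R, 7266065 to 7270809, plus strand) encodes a synaptotagmin of other vesicle pools, among them those of peptidergic cells. It had 2, 0, 3 and 1 counts in LamDm0 libraries and 0, 1, 4 and 1 counts in control libraries. A count of 0 allows up to 3 counts, which is 0.143 CPM in LamDm0 replicate 2 and 0.144 CPM in control replicate 1, counting error alone. Fitted without the filter on low counts, Syt4 stood at -0.47 ± 1 on the log2 fold change scale (adjusted p = 0.82), with a 95% interval of -2.69 to 1.74, and differences within that interval were not detectable at this depth.

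The list of calcium sensors and fusion machinery, which holds the other synaptotagmins, the SNARE proteins and their regulators, had 31 genes, of which 24 were tested. By edgeR 0 passed and 0 had an unadjusted p under 0.05, and DESeq2 and limma-voom called 0 each. The median log2 fold change was -0.03, and the smallest p belonged to unc-13, a vesicle priming gene, at 27.6 ± 6.79 CPM in LamDm0 and 36.1 ± 4.54 CPM in control guts (log2 fold change -0.39 ± 0.19, adjusted p = 0.26). The neuronal SNARE gene Snap25 had 5 counts over the LamDm0 libraries and 3 over the controls. Without LamDm0 replicates 1 and 2, 1 gene of this list passed, Sytalpha (log2 fold change 0.91, adjusted p = 0.04), a synaptotagmin gene named after its values were seen.

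The largest change among the 9 was in futsch (FBgn0259108, X, 1409069 to 1453686, plus strand). It encodes a large microtubule-associated protein of the MAP1B family, known for its role in axons and at the neuromuscular junction and detected by a widely used neuronal antibody. It had 5.13, 3.71, 3.63 and 2.37 CPM in LamDm0 replicates 1 to 4 and 1.1, 1.22, 0.739 and 0.526 CPM in control replicates 1 to 4. Every LamDm0 library was above every control, and in both groups replicates 3 and 4 were below 1 and 2, the reverse of the order in Cadps. The rise was 4.11-fold (95% interval 2.44 to 6.93; log2 fold change 2.04 ± 0.33, adjusted p = 0.008), on 416 counts in the LamDm0 libraries and 73 in the controls. Its call held without any 1 library (adjusted p up to 0.027) and without either LamDm0 pair (0.04 and 0.02), and ended with libraries summed in pairs (0.14). Of its 23308 exon bases 1186 are shared on the same strand with Gr2a, a taste receptor gene with 6 counts over all 8 libraries.

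Per unit of amon, the CPM ratio of futsch was 0.806, 0.436, 0.26 and 0.177 in LamDm0 libraries and 0.146, 0.179, 0.0867 and 0.0576 in control libraries. These ratios overlapped, the lowest LamDm0 one lying just under the highest control one. Of the ratios of futsch to each of the other 7 tested genes, Cadps left out, 4 did not overlap (to svr, IA-2, Syt1 and Rab3). For Cadps, 7 of 7 such ratios did not overlap. The CPM of Cadps and of futsch already separated the groups, so these ratios are a description and no further support for either rise. In the list of microtubule and membrane skeleton genes that neurons use, 9 genes were tested, and Map205 was the other one higher; 0 were lower and 7 did not pass, with a median of 0.06. Map205, a microtubule-associated protein that binds Polo kinase and is not confined to neurons, had 86.5, 78.3, 102 and 105 CPM in LamDm0 libraries and 47.8, 51.9, 42 and 52.9 CPM in control libraries (log2 fold change 0.93 ± 0.13, adjusted p = 0.004). With libraries summed in pairs, the call of Map205 ended too, since 0 genes of the pathway lists then passed.

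For each of the 7 tested genes other than Cadps and futsch, LamDm0 replicates spread further apart than the group means. Of the 9 tested genes, 8 were higher in both LamDm0 replicates 3 and 4 than in both 1 and 2, and futsch was lower in both. Over all genes tested, 32.9% were higher in that sense and 32.8% lower. In the controls, 5 of the 9 were higher in both replicates 3 and 4, 1 was lower and 3 were mixed, beside 30.4%, 31.7% and 38% of all genes. The direction of these 7 turned with the LamDm0 libraries used. Without LamDm0 replicates 1 and 2 the log2 fold changes of svr, IA-2, Syt1 and Rab3 were 0.09, 0.27, 0.02 and 0.40. Without LamDm0 replicates 3 and 4 those of pros, amon and 7B2 were -0.29, -0.10 and -0.17, and those of svr, IA-2, Syt1 and Rab3 were -0.31, -0.36, -0.71 and -0.67. Of these values, the threshold was passed by amon alone, without LamDm0 replicates 1 and 2.

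**Figure D4:**
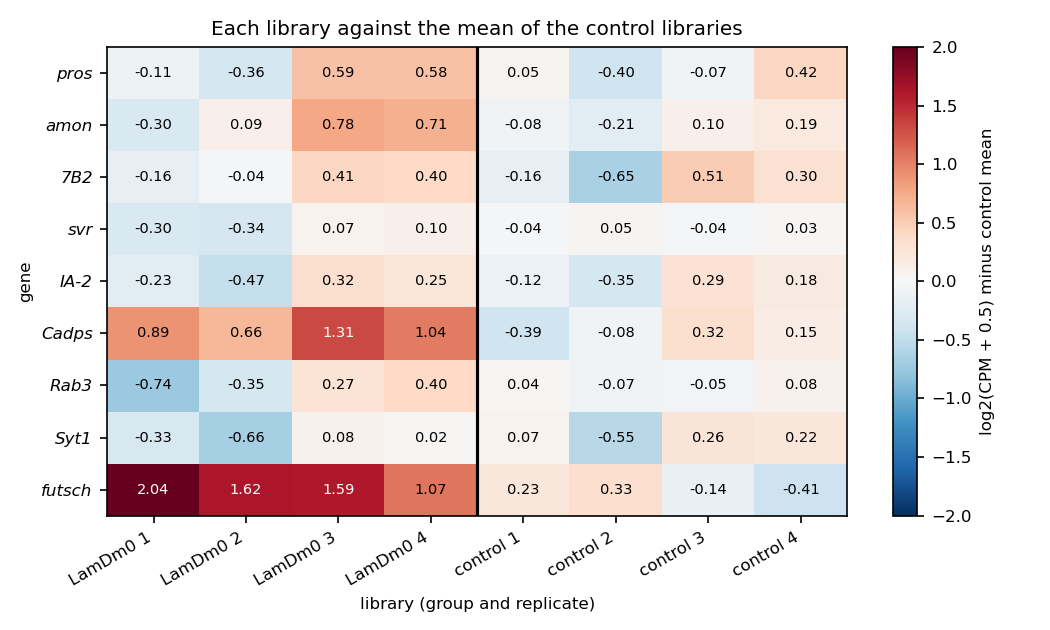
Difference of log2(CPM + 0.5) from the mean of the control libraries, for 9 genes (rows) and 8 libraries (columns), with LamDm0 libraries to the left of the black line. Cadps (by at least 0.66) and futsch (by at least 1.07) are above the control mean in all 4 LamDm0 libraries, while the other rows turn from mostly blue in LamDm0 replicates 1 and 2 to red in 3 and 4.

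**Figure D5:**
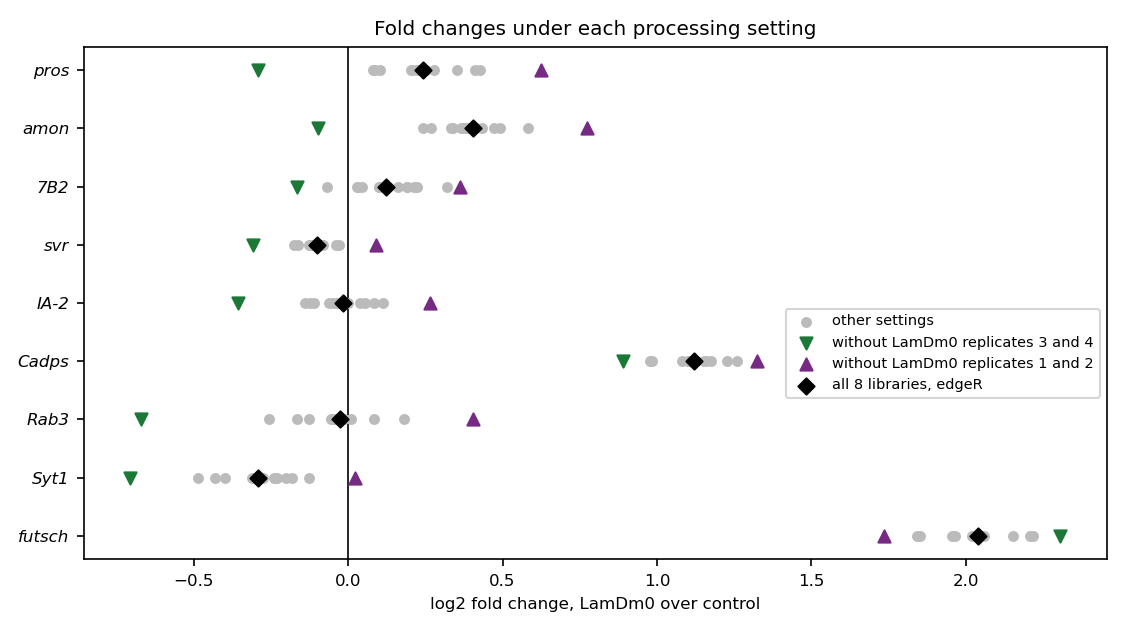
Log2 fold change of each tested gene under each processing setting: all 8 libraries with edgeR (black), without LamDm0 replicates 1 and 2 (purple), without LamDm0 replicates 3 and 4 (green) and all others (grey). Cadps and futsch stay above 0 throughout, and each of the other 7 has values on both sides of 0.

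Marker genes were read in the same libraries to describe the possible sources. Enteroendocrine peptide hormone genes summed to 309, 329, 392 and 400 CPM in LamDm0 replicates 1 to 4 and to 252, 221, 357 and 361 CPM in control replicates 1 to 4. Replicates 3 and 4 were the higher ones in both groups, as for amon, 7B2, IA-2, Syt1 and Cadps, and the groups overlapped. Of 14 such genes 12 were tested. By edgeR 0 passed, 3 had an unadjusted p under 0.05, DESeq2 called 1 (Mip) and limma-voom 0, with a median of 0.34 and 10 of 12 positive. Tk, encoding tachykinin, had 38.2 ± 12.3 CPM in LamDm0 and 36.4 ± 10.4 CPM in control guts (adjusted p = 0.9). Mip, encoding myoinhibitory peptide, had 3.66, 4.9, 5.02 and 5.87 CPM in LamDm0 libraries and 2.06, 1.02, 3.25 and 3.01 CPM in control libraries, which do not overlap (log2 fold change 1.06 ± 0.33, adjusted p = 0.092). Without LamDm0 replicates 1 and 2, the peptide genes AstA (1.18, adjusted p = 0.015) and CCHa1 (1.11, adjusted p = 0.045) passed, and without control replicate 3 Nplp2 did (1.43, adjusted p = 0.048), all 3 named after their values were seen. Nplp2 had 0.739 CPM in control replicate 3, 9.32 to 18.2 CPM in the other controls and 22.2 to 52.7 CPM in LamDm0 libraries. The yolk protein genes Yp1, Yp2 and Yp3 were also lowest in control replicate 3. A shared source of these genes was not tested. Of 8 enteroendocrine transcription factor genes 5 were tested. By edgeR 0 passed and 0 had an unadjusted p under 0.05, and DESeq2 and limma-voom called 0 each. The median was -0.34, and 2 of 5 were positive. The smallest p was that of Ptx1 (log2 fold change -0.34 ± 0.20, adjusted p = 0.33), which passed without LamDm0 replicates 3 and 4 (-0.74, adjusted p = 0.025). Below the filter on low counts, dimm had 0.486 ± 0.26 CPM in LamDm0 and 0.233 ± 0.107 CPM in control guts. Its counts were 64 and 19, and its groups overlapped. Also below the filter, ase had a higher mean CPM in LamDm0 guts and Poxn a lower one.

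Neuronal markers had a summed level of 50.6 to 67.6 CPM in LamDm0 libraries and 49.3 to 59.4 CPM in control libraries. Of 17 genes 16 were found and 10 tested. By edgeR 0 passed, 1 had an unadjusted p under 0.05, and DESeq2 and limma-voom called 0 each, with a median of -0.12. The pan-neuronal gene elav had 5.12 ± 1.13 CPM in LamDm0 and 6.1 ± 0.509 CPM in control guts (log2 fold change -0.25 ± 0.18, adjusted p = 0.44). The synaptic vesicle gene nSyb had 1.72 ± 0.755 and 1.88 ± 0.446 CPM in LamDm0 and control guts (-0.12 ± 0.34, adjusted p = 0.86). The smallest p belonged to Nrx-1, encoding the adhesion protein neurexin, at 28.1 ± 5.99 CPM in LamDm0 and 19.2 ± 2.68 CPM in control guts (0.55 ± 0.17, adjusted p = 0.083). None of the found neuronal markers was at 0 in all 8 libraries. VGlut, which marks glutamatergic neurons, had a count of 1 in each group. ChAT, another marker below the filter on low counts, had 0.324 ± 0.16 CPM in LamDm0 and 0.0852 ± 0.0843 CPM in control guts. Its counts were 38 and 7, and its groups overlapped narrowly. Also below the filter, para, fne and Gad1 had lower mean CPM in LamDm0 guts, and Snap25 had nearly equal means. The groups overlapped for elav, nSyb and the summed level, and did not overlap for Nrx-1, which was the largest part of that sum. The part of neuronal RNA in the rise of futsch and Cadps was not tested.

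Other marker lists were read the same way. Of 4 glial, 9 visceral muscle, 9 stem cell and enteroblast and 3 ovary and fat body genes tested, edgeR called 0 in each. An unadjusted p under 0.05 was reached by 1, 0, 1 and 0, and DESeq2 called 0, 0, 1 and 0 and limma-voom 0 in each. Their smallest p belonged to nrv2, sls, polo and Yp3, with log2 fold changes of -0.53, -0.51, 1.42 and 1.58. Some passed when libraries were left out: polo without control replicate 4 (2.09, adjusted p = 0.013) and Yp3 without control replicate 3 (1.18, adjusted p = 0.048). Eaat1, a transporter gene of the glial list named after its values were seen, passed without LamDm0 replicates 1 and 2 (-1.73, adjusted p = 0.025). The genes repo and alrm of that list had 14 and 27 counts over all 8 libraries and were removed by the filter on low counts. Their means leaned the other way, with overlapping groups. For repo they were 0.0832 CPM in LamDm0 and 0.0359 CPM in control guts, and for alrm 0.195 and 0.0733 CPM. The enterocyte list had 1 lower, Alp4 (28.2 ± 10.4 CPM in LamDm0 and 76.7 ± 29 CPM in control guts, adjusted p = 0.037), among 7 tested. That call held without LamDm0 replicate 4 or control replicate 2 or 3 and ended without any 1 of the other 5 libraries or without either LamDm0 pair. Summed muscle markers overlapped, at 947 to 2580 CPM in LamDm0 and 1170 to 2370 CPM in control libraries, and Mhc had 321 ± 154 and 382 ± 89.6 CPM in LamDm0 and control guts. Summed ovary and fat body markers did not overlap. They were almost wholly the yolk protein genes Yp1, Yp2 and Yp3 and came to 1520, 1750, 1020 and 801 CPM in LamDm0 libraries and 744, 647, 15.4 and 480 CPM in control libraries. In both groups they were, like futsch, higher in replicates 1 and 2 than in 3 and 4. Their part in the rise of futsch and Cadps was not tested.

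Likeness of pattern was measured as the root mean square difference of log2(CPM + 0.5) over the 8 libraries, each gene centred on its own mean. Among these genes the closest pair was IA-2 and Syt1 (0.14), followed by 7B2 and IA-2 (0.20), and futsch was the farthest from each of the others except Cadps (0.88 to 1.06). Against 5 markers, Tk was the closest to IA-2 (0.13), 7B2 (0.14), pros (0.22) and amon (0.24). The neuronal nSyb was the closest to Syt1 (0.20, with Tk at 0.21) and Rab3 (0.22), elav to svr (0.18), and Mip to Cadps (0.36) and futsch (0.74). The 3 genes that varied most were futsch, Cadps and 7B2, and each was compared with 8173 others. Closest to futsch were CG9676 (0.16), Hsp70Bb (0.18), which has near-identical copies, and CG5758 (0.23). Closest to Cadps were CG16892 (0.16), CHKov1 (0.17) and the gene of the largest subunit of chromatin assembly factor 1 (0.18), and closest to 7B2 were CG14989 (0.12), Tk (0.14) and ERp60 (0.15). These distances describe 8 libraries that share their pairs and depths. For Cadps and futsch they include the difference between the groups, and Mip had the largest log2 fold change of the 5 markers. A shared source was not tested.

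The same 2 of the 10 genes had an adjusted p under 0.05 in the authors' deposited table. In the authors' deposited table, futsch stood at 1.71 on the log2 scale, with an adjusted p of 6.4e-07, and Cadps at 1.01, with an adjusted p of 0.00058. Adjusted p for the other 8 in the authors' deposited table ran from 0.44 for amon to 0.96 for Rab3.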

How the data were processed

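Per the labels' protocols, each library started from 100 ng of RNA, selected for poly(A) with a kit that marks strand, and 12 libraries were pooled and read as 50 nt single reads on 2 lanes; 8 were analysed here. The authors deposited 1 table of raw counts per gene, and their own comparison with log2 fold changes and p-values, per the file headers. That second table also holds a mean normalised count, a signal column of the authors that was not used here. The submitters' processing notes name the build BDGP6 and, without roles, DESeq2 1.10.1, HTSeq 0.6.0 and TopHat2 2.0.13; no source used here gives the strand setting or the treatment of reads matching several genes. Of 17559 genes, 17416 had a symbol. Of 150 entries in 12 further gene lists, 6 matched no gene. Ensembl release 115 for BDGP6.54 gave coordinates and exon lengths.

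edgeR 4.0.16 in R 4.3.3 was run with filterByExpr, TMM scaling and no block, and its quasi-likelihood test took LamDm0 over control. P-values, in either direction, were adjusted by Benjamini-Hochberg over 8794 genes, threshold 0.05. CPM use TMM-scaled library sizes and are given as mean ± SD; SE is the log2 fold change divided by the square root of F. DESeq2 1.42.0 and limma-voom (limma 3.58.1) were alternatives. The steps were tested on simulated counts. Genes and lists were chosen with earlier results of these data known. Named genes are the 10, Lam, for each list those past the threshold (at most 4) or the smallest p, the markers Tk, Mip, elav, nSyb and Mhc, and the 3 closest in pattern to the 3 most variable of the 10. Genes outside this rule (Snap25, VGlut, Gr2a, Yp1, Yp2, CG8562, Sytalpha, AstA, CCHa1, Nplp2, Eaat1 and unc-104) were named after their values were seen. So were ChAT, para, fne, Gad1, repo, alrm, dimm, Poxn and ase.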

Additional observations from a re-analysis of the deposited data

Results flagged for a closer look

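In 74 groups of 4 libraries, the highest or lowest library was compared with the rest by Dixon's ratio, and 2 groups stood out; chance gives about 1 in 20 such groups. In both the library was control replicate 4. For unc-104, a kinesin that carries synaptic and dense core vesicles, LamDm0 libraries had 31, 27.4, 77.6 and 71.6 CPM, and control replicate 4 had 91.5 CPM, while its fellow controls had 35.5 to 41.6 CPM. For polo, a mitotic kinase gene, control replicate 4 had 2.68 CPM, while its fellow controls had 0.67 to 0.865 CPM. No gene among the 10 stood out in this way in either group.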

How the results depend on the processing

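Cadps and futsch were the genes called with all 8 libraries, and DESeq2, limma-voom, RLE scaling, no filter and the replicate block called the same 2. The number called was 1 to 2 when 1 library was left out, 0 with a mean of at least 10 CPM (both were too low to be tested), 3 without LamDm0 replicates 1 and 2, 1 without 3 and 4, and 0 with libraries summed in pairs. Over all genes 706 were called (419 higher, 287 lower). The counts were 1301 (665 and 636) by DESeq2, 465 (275 and 190) at 10 CPM, 878 (452 and 426) without LamDm0 replicates 1 and 2, 439 (302 and 137) without LamDm0 replicates 3 and 4, 72 (36 and 36) summed in pairs, and 346 to 654 (214 to 387 and 132 to 267) without 1 library. The replicate block gave 332 (211 and 121). Over all genes tested, same-numbered libraries did not deviate together (correlation -0.39 to -0.01). Among the 10, amon, 7B2, IA-2, Syt1, Cadps and futsch split replicates 1 and 2 from 3 and 4 the same way in both groups. The share of all genes that do so in both groups was not counted, so nothing particular to these genes is drawn from it. Whether the numbers pair the samples was not tested. In the 4 pathway lists 3 genes were called, 2 to 3 without 1 library, 1 at 10 CPM, 6 without LamDm0 replicates 1 and 2, and 0 summed in pairs. In the 8 marker lists 1 was called, 0 to 3 without 1 library, 3 by DESeq2, 3 without LamDm0 replicates 1 and 2, and 0 summed in pairs. The median log2 fold change of the tested genes was 0.12, -0.06 to 0.22 without 1 library, and -0.29 without LamDm0 replicates 3 and 4. Signs also turned without 1 library for IA-2 (-0.14 to 0.11), Rab3 (-0.26 to 0.18) and 7B2 (-0.068 to 0.319), and for IA-2 at 10 CPM (0.001). Without LamDm0 replicates 1 and 2, svr, IA-2, Syt1 and Rab3 stood at 0.09, 0.27, 0.021 and 0.40; without 3 and 4, pros, amon and 7B2 at -0.29, -0.10 and -0.17. With no filter, Syt4 had -0.47 ± 1 (adjusted p = 0.82). Apart from the 10 CPM filter and the summing, which leave fewer genes or samples, the cause of these shifts was not tested. Intervals and floors cover counting error and the spread between these libraries only.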
